A study of Mus musculus with 64 samples.

Results

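Calcineurin is the calcium- and calmodulin-dependent protein phosphatase of neurons and other cells. The genes described here encode its subunits, the NFAT transcription factors that it acts on and the Rcan proteins that bind and inhibit it. They are Ppp3ca, Ppp3cb, Ppp3cc, Ppp3r1, Nfatc1, Nfatc2, Nfatc3, Nfatc4, Rcan1 and Rcan2, which are 10 of the 55401 genes in the table, and all 10 passed the filter on low counts. They were chosen by their fold changes in the prefrontal cortex (PFC) 3 h after psilocybin, where the set rose, so that comparison is given below as a description and without a test.

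The study asked how 1 dose of psilocybin, an agonist at serotonin receptors, affected gene expression in the hypothalamus and the PFC (labelled as frontal cortex). Male C57BL/6J mice on chow diet, group-housed and 10 weeks old at injection, received 3 mg/kg psilocybin or isotonic saline intraperitoneally and were killed 3 h or 4 weeks later. Each of 32 mice gave both regions, so that the 64 samples form 8 groups of 8. Bulk tissue RNA was sequenced after poly-A selection with a stranded kit. Each cage held 1 mouse of each treatment and time, RNA was extracted in 2 pools for each region, and so pool and region cannot be told apart. Mice killed 4 weeks after the injection were also older than those killed at 3 h.

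Calcineurin pairs a catalytic subunit with a calcium-binding regulatory subunit and is switched on when calcium-loaded calmodulin binds. It removes phosphates from NFAT proteins, which then enter the nucleus, and from synaptic proteins and channels. In forebrain neurons it is known as an abundant phosphatase of synapses. Rcan1 is a well-known NFAT target: an internal start within the gene gives a shorter transcript that is induced when calcineurin is active.

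Promoter windows of 250 bases that end at the base before a RefSeq transcription start (GRCm38.p6) were at hand for 7 of the 10 genes and covered 12 starts. Ppp3ca, Ppp3cc and Nfatc1 had none. The core of the NFAT site, GGAAA, and its reverse complement TTTCC were searched together with TGACGTCA, the palindromic cAMP response element. Both starts of Rcan1 are shown because its transcripts differ in the start they use, and Nfatc2 and Ppp3cb because they lie on opposite sides of the regional difference described below. Each is written 5′ to 3′ on the strand of its gene, with the searched letters in capitals. The genes read from the minus strand, and the windows lie at chr16:92400079-92400328 (Rcan1, internal start), chr16:92466170-92466419 (Rcan1, distal start), chr2:168601658-168601907 (Nfatc2) and chr14:20546574-20546823 (Ppp3cb).
Rcan1 internal start: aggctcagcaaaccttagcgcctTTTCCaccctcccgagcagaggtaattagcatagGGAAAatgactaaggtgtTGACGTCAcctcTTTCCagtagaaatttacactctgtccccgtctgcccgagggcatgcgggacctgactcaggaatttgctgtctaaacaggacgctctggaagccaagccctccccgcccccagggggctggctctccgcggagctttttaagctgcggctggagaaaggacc
Rcan1 distal start: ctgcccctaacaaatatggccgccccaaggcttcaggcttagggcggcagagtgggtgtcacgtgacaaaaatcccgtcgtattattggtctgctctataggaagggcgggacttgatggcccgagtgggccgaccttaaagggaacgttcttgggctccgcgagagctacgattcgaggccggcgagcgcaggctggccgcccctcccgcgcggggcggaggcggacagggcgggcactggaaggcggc
Nfatc2: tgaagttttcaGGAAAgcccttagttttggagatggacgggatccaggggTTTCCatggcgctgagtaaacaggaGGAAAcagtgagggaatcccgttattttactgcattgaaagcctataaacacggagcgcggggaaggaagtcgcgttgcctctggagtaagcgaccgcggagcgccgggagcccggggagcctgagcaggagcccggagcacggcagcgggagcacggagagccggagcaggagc
Ppp3cb: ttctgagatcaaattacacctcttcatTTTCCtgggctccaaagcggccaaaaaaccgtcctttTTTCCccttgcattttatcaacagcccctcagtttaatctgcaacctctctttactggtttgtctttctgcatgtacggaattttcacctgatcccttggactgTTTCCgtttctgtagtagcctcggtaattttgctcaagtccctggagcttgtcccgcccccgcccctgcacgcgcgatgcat

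The internal Rcan1 window held 3 matches to GGAAA or TTTCC and 1 to TGACGTCA, which did not overlap each other, while the distal window held 0 of either. The windows shown for Nfatc2 and Ppp3cb held 3 GGAAA or TTTCC matches each and none to TGACGTCA. Nfatc2 has a further listed start, whose window (chr2:168590366-168590615, not shown) held 1 GGAAA or TTTCC match and 0 to TGACGTCA. Of all 12 windows of the genes, 7 held at least 1 GGAAA or TTTCC, 4 held 3 (those of Rcan1 at its internal start, Nfatc2 and Ppp3cb shown here and that of Nfatc4) and 5 held 0, among them the single window of Ppp3r1. The internal Rcan1 window was the 1 with TGACGTCA. Over all 32851 windows of that length, 55.6% held at least 1 GGAAA or TTTCC, 6.39% held at least 3 and 1.55% held TGACGTCA. The counts are summed per gene, so reads from the internal and the distal Rcan1 transcript cannot be separated in any value below.

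Of the 64 libraries, 62 had at least 1000000 counted reads and were used, with 8061033 to 70361839 counted reads and a median of 18287978.5. One hypothalamus library (saline, 3 h, replicate 2) and one PFC library (psilocybin, 4 weeks, replicate 3) were left out. The defining genes of each region followed the labels. The summed level of 5 genes of cortical excitatory neurons was 1368 to 1989 CPM (counts per 1000000, on TMM-scaled library sizes) in PFC libraries and 61.4 to 167 CPM in the hypothalamus. The sum of 6 hypothalamic genes was 206 to 2555 CPM in the hypothalamus and 0.864 to 12.7 CPM in the PFC, where 25 libraries had at least 1 of the 6 at 0. In the voom fit, the PFC library of psilocybin replicate 7 at 3 h and the hypothalamus library of psilocybin replicate 5 at 4 weeks had the lowest quality weights of their regions, 0.12 and 0.0276. The comparisons that hold them are also given without them.

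The 10 genes differed first of all by region. In saline mice at 4 weeks, where 8 PFC and 8 hypothalamus libraries were compared, all 4 calcineurin subunit genes were higher in the PFC, Nfatc1, Nfatc2 and Nfatc3 were lower, and the 2 Rcan genes went in opposite directions. By the quasi-likelihood test of edgeR, adjusted over all genes after Benjamini and Hochberg, 5 genes were called higher and 4 lower, where 55.2% of the 18971 genes tested were called (29.5% higher and 25.7% lower). A share of 9 in 10 called thus stands against a background in which most genes differ between these regions. In bulk tissue, fewer cells that express a gene and less of its RNA per cell cannot be told apart.

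**Figure D1:**
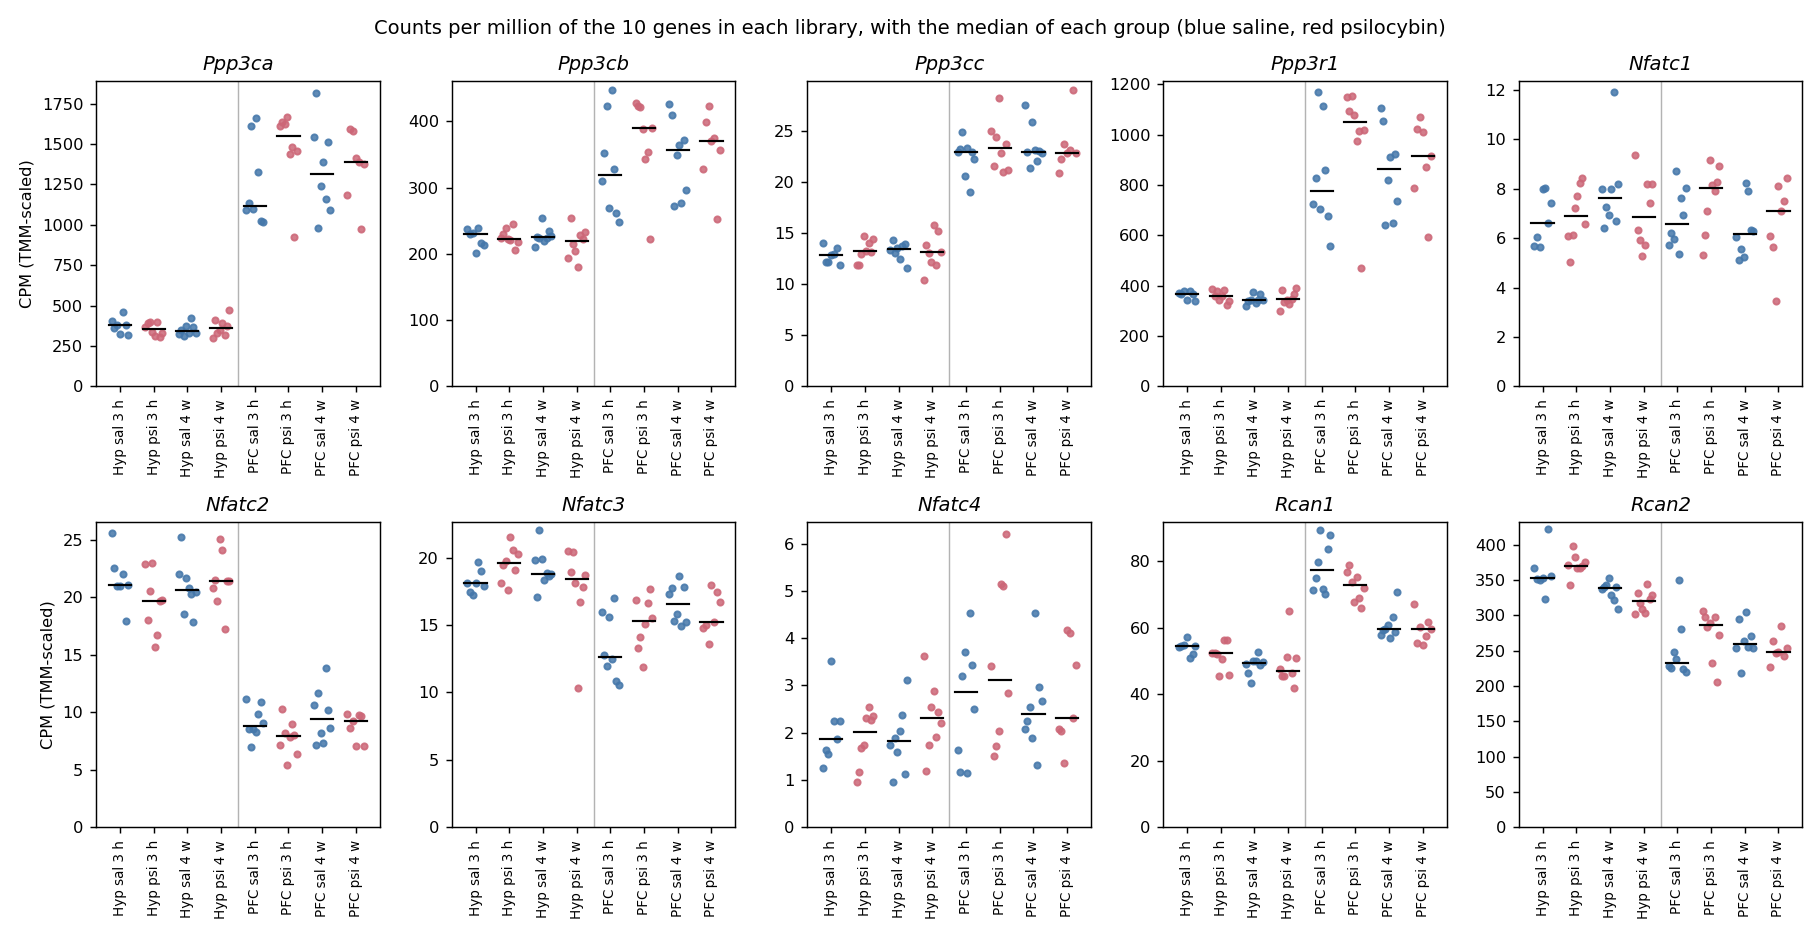
Level of each of the 10 genes in CPM on TMM-scaled library sizes (vertical axis, linear from 0) in every library used, by region, treatment and time (horizontal axis; sal is saline, psi is psilocybin, Hyp is hypothalamus), with black bars at group medians. Ppp3ca and Ppp3r1 reach at least 925 and 471 CPM in every PFC library and at most 473 and 389 CPM in every hypothalamus library, whereas the treatments overlap in every panel.

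Ppp3ca, which encodes the alpha catalytic subunit, the main one of the brain, differed most. Its level in saline mice at 4 weeks was 982 CPM at the lowest, 1318 at the median and 1814 at the highest in the PFC, and 311, 341 and 421 CPM in the hypothalamus. The groups did not overlap. The log2 fold change was 1.93 (SE 0.115), a 3.82-fold higher level (adjusted p = 2.78e-22, edgeR's quasi-likelihood test), and the PFC was higher in 8 of 8 mice.

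Over all treatments and times, Ppp3ca was 925 to 1814 CPM in 31 PFC libraries and 297 to 473 CPM in 31 hypothalamus libraries. Every PFC library thus lay above every hypothalamus library.

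Ppp3cb, the beta catalytic subunit, was 273, 356 and 427 CPM (lowest, median and highest) in the PFC and 211, 225 and 254 CPM in the hypothalamus. These groups were also separate, by a log2 fold change of 0.60 (SE 0.0991, adjusted p = 4.74e-07, edgeR). The gamma catalytic subunit gene Ppp3cc, known for its expression in testis, had far fewer reads, with 21.4, 23.0 and 27.6 CPM in the PFC and 11.6, 13.5 and 14.4 CPM in the hypothalamus. It too was higher in the PFC without overlap (log2 fold change 0.83, SE 0.0705, adjusted p = 8.05e-16, edgeR).

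The mix of catalytic subunit mRNA therefore differed between the regions. On the length-corrected scale (TPM, transcripts per 1000000), Ppp3ca made up 73.8% ± 1.79 (SD, n = 8) of the summed catalytic subunit level in the PFC of saline mice at 4 weeks and 53.7% ± 2.12 (SD, n = 8) in the hypothalamus. The share of Ppp3cb was 21.7% ± 1.23 in the PFC and 39.5% ± 2.02 in the hypothalamus, and that of Ppp3cc was 4.46% ± 0.699 and 6.81% ± 0.451. Within each region the mean Ppp3ca share of the 4 groups stayed within 73.5% to 74.7% in the PFC and 53.7% to 55.8% in the hypothalamus. The shares are given without a test.

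**Figure D2:**
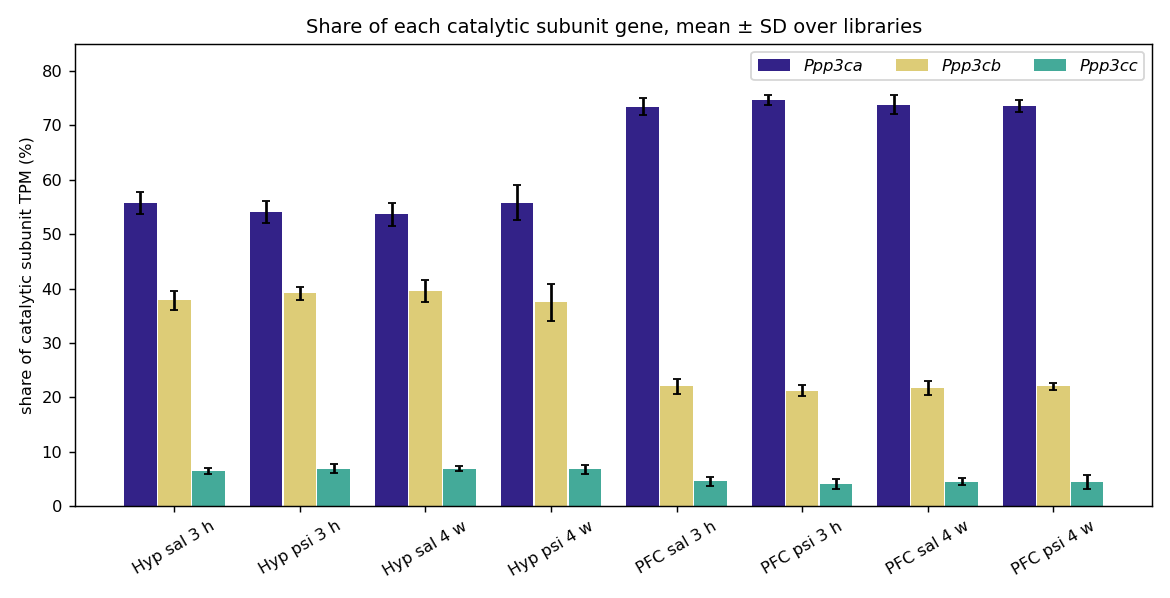
Share of the summed TPM of Ppp3ca, Ppp3cb and Ppp3cc that each gene made up, in percent (vertical axis, from 0), as the mean over libraries with SD bars in each group (horizontal axis; sal is saline, psi is psilocybin). Ppp3ca takes 73.5% to 74.7% in the PFC groups and 53.7% to 55.8% in the hypothalamus groups.

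Ppp3r1 encodes the calcium-binding regulatory subunit that all 3 catalytic subunits use in the brain. It was 641, 866 and 1106 CPM in the PFC and 318, 344 and 374 CPM in the hypothalamus. The lowest PFC library was above the highest hypothalamus library, with a log2 fold change of 1.31 (SE 0.118, adjusted p = 1.05e-14, edgeR's quasi-likelihood test) and a higher PFC level in 8 of 8 mice.

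Of the NFAT genes, Nfatc2 differed most between the regions and in the other direction from the phosphatase. Nfatc2, best known as an activator of cytokine genes in T cells, was 7.18, 9.43 and 13.9 CPM in the PFC and 17.9, 20.6 and 25.3 CPM in the hypothalamus. The groups did not overlap (log2 fold change −1.10, SE 0.109, adjusted p = 3.30e-13, edgeR), and the PFC was higher in 0 of 8 mice.

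The other NFAT genes differed less. Nfatc1, known from heart valve and bone development, was 5.11, 6.17 and 8.24 CPM in the PFC and 6.42, 7.62 and 11.9 CPM in the hypothalamus, and the groups overlapped. Its log2 fold change was −0.32 (SE 0.122, adjusted p = 0.0206, edgeR), and without the highest hypothalamus library (saline replicate 6) it was −0.24 with an adjusted p of 0.0875, which ended the call.

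Nfatc3, which is expressed in muscle, lymphocytes and neurons, was 15.0, 16.6 and 18.6 CPM in the PFC and 17.1, 18.8 and 22.1 CPM in the hypothalamus. This overlap went with a log2 fold change of −0.21 (SE 0.0916) at an adjusted p of 0.0468 in edgeR, close to the threshold, with the cage number as a block the adjusted p was 0.0576 and with the mouse as a block 0.0243. The call of Nfatc3 was also lost when any of 10 single libraries was left out, with log2 fold changes of −0.24 to −0.18 over the 16 libraries left out in turn.

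Nfatc4, an NFAT gene studied in neurons and heart muscle, had the fewest reads, 11 to 178 counts per library over the PFC libraries. It was 1.31, 2.40 and 4.54 CPM in the PFC and 0.963, 1.82 and 3.12 CPM in the hypothalamus. The groups overlapped and the log2 fold change of 0.46 (SE 0.247) did not pass the test (adjusted p = 0.111, edgeR), although the PFC was higher in 6 of 8 mice. Leaving out PFC saline replicate 6 gave 0.58 and an adjusted p of 0.0386.

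The inhibitor genes diverged. Rcan1, which encodes the calcineurin inhibitor with the NFAT-responsive internal start shown above, was 57.0, 59.5 and 70.7 CPM in the PFC and 43.3, 49.4 and 52.7 CPM in the hypothalamus. The regions were separate, with a log2 fold change of 0.32 (SE 0.0624, adjusted p = 1.18e-05, edgeR) and a higher PFC level in 8 of 8 mice.

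Rcan2, its relative of the same family and the more abundant of the pair per length in both regions, was 219, 259 and 304 CPM in the PFC and 309, 338 and 352 CPM in the hypothalamus. Here the hypothalamus was the higher region without overlap (log2 fold change −0.34, SE 0.0718, adjusted p = 5.62e-05, edgeR), and the PFC was higher in 0 of 8 mice. In all, 7 of the 10 genes had groups that did not overlap, against 29.1% of all genes tested.

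**Figure D3:**
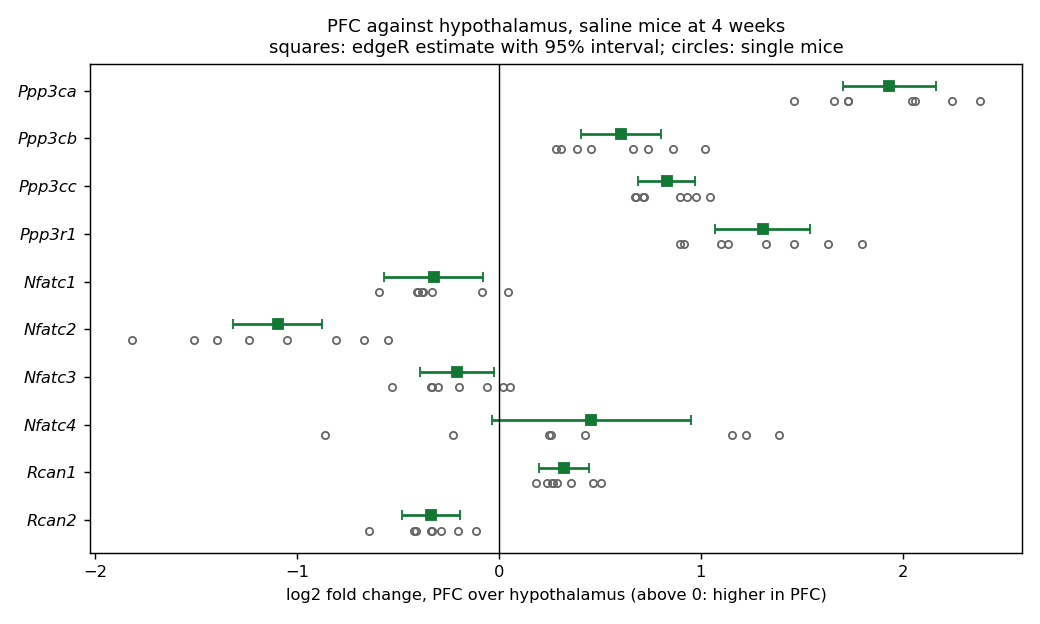
Log2 fold change of PFC over hypothalamus (horizontal axis) for each gene (vertical axis) in saline mice at 4 weeks, as the edgeR estimate with its 95% interval (squares) and as the difference in each of the 8 mice (circles). The circles of Ppp3ca, Ppp3cb, Ppp3cc, Ppp3r1 and Rcan1 all lie above 0 and those of Nfatc2 and Rcan2 all lie below 0, while Nfatc1, Nfatc3 and Nfatc4 have mice on both sides.

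Cell type markers differed between the regions as well, in both directions. The pan-neuronal genes Snap25, Syt1 and Rbfox3 were all called higher in the PFC, by a median log2 fold change of 1.31, and 4 of 4 oligodendrocyte genes were called lower, by −1.12 to −0.93. Of the GABAergic neuron genes Gad1, Gad2 and Slc32a1, 2 of 3 were called lower (median −1.02). All 4 microglia genes were called higher, by 0.56 to 0.89, as were 3 of 3 endothelial genes, by 0.46 to 0.51, and of 4 astrocyte genes 1 was called higher and 1 lower. The summed neuronal level was 3862 to 6875 CPM over PFC libraries and 1709 to 2613 CPM over hypothalamus libraries. Markers of neighbouring tissue differed too. All 3 thalamic and all 3 choroid plexus genes were called lower in the PFC (medians −3.21 and −3.41). Of 5 striatal genes 1 was called higher and 1 lower. The highest striatal sum in these PFC libraries was 673 CPM (median 63.6), and the highest choroid plexus sum in these hypothalamus libraries was 1215 CPM (median 44.7). The part of these markers in the regional difference of the 10 genes was not tested.

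Per length, the order of the 10 genes differed between the regions at its upper end. In the PFC of saline mice at 4 weeks the mean level was 935 TPM for Ppp3r1, 474 for Ppp3ca, 213 for Rcan2, 139 for Ppp3cb, 70.1 for Rcan1 and 28.1 for Ppp3cc. Each of these genes exceeded the next in 8 of 8 libraries. The NFAT genes followed at 5.01 TPM for Nfatc3, 3.28 for Nfatc2, 2.99 for Nfatc1 and 1.52 for Nfatc4. Nfatc2 exceeded Nfatc1 in 5 of 8 libraries, so these neighbours did not differ beyond their spread (SD 0.882 and 0.432 TPM).

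In the hypothalamus the order was 433 TPM for Ppp3r1, 309 for Rcan2, 142 for Ppp3ca, 105 for Ppp3cb, 63.9 for Rcan1 and 18.0 for Ppp3cc, again with each above the next in 8 of 8 libraries. Rcan2 and Ppp3ca thus stood in the reverse order from the PFC. Nfatc2 led the NFAT genes there at 8.00 TPM and exceeded Nfatc3, at 6.63 TPM, in 7 of 8 libraries, ahead of Nfatc1 at 4.28 and Nfatc4 at 1.29 TPM. In both regions all 4 NFAT mRNAs lay below every subunit and inhibitor mRNA on this scale.

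Of 44 listed genes that feed, anchor, oppose or follow calcineurin, 43 were tested, and 26 were called higher in the PFC and 3 lower, where 29.5% of all genes tested were called higher and 25.7% lower. Their median log2 fold change was 0.39 against 0.04 for all genes tested. Kcnk18 was the one that did not pass the filter on low counts. Of the 11 genes for calmodulin and calcium sources, 8 were called higher and none lower, and among the 9 anchors and other inhibitors 7 were called higher and none lower. Of the 8 kinases that phosphorylate NFAT, 3 were called higher and 1, the protein kinase A subunit gene Prkaca, was lower (log2 fold change −0.48, SE 0.0581).

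The pathway genes with the smallest p-values were Itpr1, the IP3 receptor calcium channel of internal stores, and Pip5k1c, a lipid kinase of synaptic vesicle cycling. Their log2 fold changes were 2.37 (SE 0.118) and 1.65 (SE 0.0825), with adjusted p-values of 5.73e-26 and 7.40e-26 in edgeR. Rcan3, the remaining member of the Rcan family, was lower by −1.67 (SE 0.0896).

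In the PFC 3 h after injection, the comparison by which the genes were chosen, 8 of the 10 had a higher fitted level after psilocybin and 2, Nfatc2 and Rcan1, a lower one. Among all genes tested 48% had a log2 fold change above 0. The median log2 fold change of the 10 was 0.15, against −0.0074 for all genes tested. No gene of the 10 had groups that did not overlap, where 0.0105% of all genes did.

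Ppp3ca was 1017, 1116 and 1659 CPM (lowest, median and highest) in 8 saline libraries and 925, 1547 and 1665 CPM in 8 psilocybin libraries, a log2 fold change of 0.24 (SE 0.111). Of the psilocybin libraries 7 lay between 1438 and 1665 CPM and replicate 7 lay at 925 CPM, below every saline library. Saline replicates 3 and 5, at 1613 and 1659 CPM, lay among the psilocybin libraries, and the other saline libraries reached 1328 CPM.

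The same libraries stood apart for Ppp3r1, which was 557, 776 and 1170 CPM after saline and 471, 1049 and 1153 CPM after psilocybin (log2 fold change 0.25, SE 0.117). Psilocybin replicate 7 held the lowest value and saline replicates 3 and 5 the highest saline values, 1170 and 1115 CPM. Ppp3cb was 248, 319 and 447 CPM after saline and 222, 389 and 428 CPM after psilocybin, a difference of 0.16 (SE 0.0987), with psilocybin replicate 7 lowest and saline replicate 5 highest. Ppp3cc differed by 0.07 (SE 0.0694).

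Without psilocybin replicate 7, the log2 fold changes were 0.31 for Ppp3ca and 0.35 for Ppp3r1, and with the quality weights of voom, which gave that library 0.12 and saline replicates 3 and 5 weights of 0.275 and 0.286, they were 0.40 and 0.43. Leaving replicate 7 out moved Ppp3cb to 0.24, Nfatc4 from 0.30 to 0.20 and Rcan2 from 0.12 to 0.17, and the median of the 10 genes to 0.16. With the weights of voom Ppp3cb was 0.29. The difference was not even over the extraction pools. Ppp3ca differed by 0.42 in pool C and 0.08 in pool D, which held psilocybin replicate 7, Ppp3r1 by 0.42 and 0.10, and Ppp3cb by 0.31 and 0.04.

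Marker levels varied between the same libraries, with no common direction. The summed level of the pan-neuronal genes was 3862, 5757 and 6869 CPM after psilocybin and 4363, 5058 and 6875 CPM after saline, with psilocybin replicate 7 lowest and saline replicate 5 highest. Of its genes, Snap25 had a log2 fold change of 0.21 (SE 0.101), Syt1 one of −0.02 (SE 0.0970) and Rbfox3 one of −0.03 (SE 0.0830). Of 5 cortical excitatory neuron genes 4 had lower fitted levels after psilocybin, and the median of their sum was 1599 CPM against 1824 CPM after saline. All 4 oligodendrocyte genes had higher fitted levels, by 0.19 to 0.29, and so had all 5 striatal genes, by 0.25 to 1.13. The striatal sum was 57.2, 71.6 and 245 CPM after saline and 59.0, 78.0 and 292 CPM after psilocybin, highest in psilocybin replicates 4 and 6 and saline replicate 6. The part of these markers in the result was not tested.

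The NFAT and Rcan genes were mixed in that comparison. Nfatc2 was 6.99, 8.78 and 11.1 CPM after saline and 5.39, 7.93 and 10.3 CPM after psilocybin, a log2 fold change of −0.25 (SE 0.113) with overlapping groups. Nfatc3 differed by 0.17 (SE 0.0930) and Nfatc4 by 0.30 (SE 0.242), but both were slightly lower in pool C, by −0.01 and −0.09, and higher in pool D, by 0.37 and 0.84. Nfatc1 differed by 0.14 (SE 0.122).

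Rcan1 was 70.3, 77.4 and 89.6 CPM after saline and 66.1, 72.9 and 79.1 CPM after psilocybin (log2 fold change −0.12, SE 0.0620), lower in both pools, by −0.08 and −0.15. Rcan2 differed by 0.12 (SE 0.0719), by 0.32 in pool C and −0.08 in pool D. With the quality weights of voom, Rcan1 was nearer to 0, at −0.07, and Rcan2 farther from it, at 0.22.

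The 3 subunit genes with the highest counts varied together from library to library. After group and pool means were removed, Pearson's r over the 62 libraries was 0.869 between Ppp3ca and Ppp3r1, 0.845 between Ppp3ca and Ppp3cb and 0.950 between Ppp3cb and Ppp3r1, and within the 31 PFC libraries it was 0.945, 0.940 and 0.970. Within the 31 hypothalamus libraries the values were 0.740, 0.573 and 0.837. Among the 45 pairs of the 10 genes, 6 had r above 0.5, and these were the pairs among Ppp3ca, Ppp3cb, Ppp3r1 and Rcan2. Rcan2 joined them through the PFC, where its r with Ppp3ca, Ppp3cb and Ppp3r1 was 0.793, 0.782 and 0.750, and in the hypothalamus it was −0.011, 0.255 and 0.269. The median pair had r = −0.099. These points share library, depth and base composition, and r is given as a description.

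**Figure D4:**
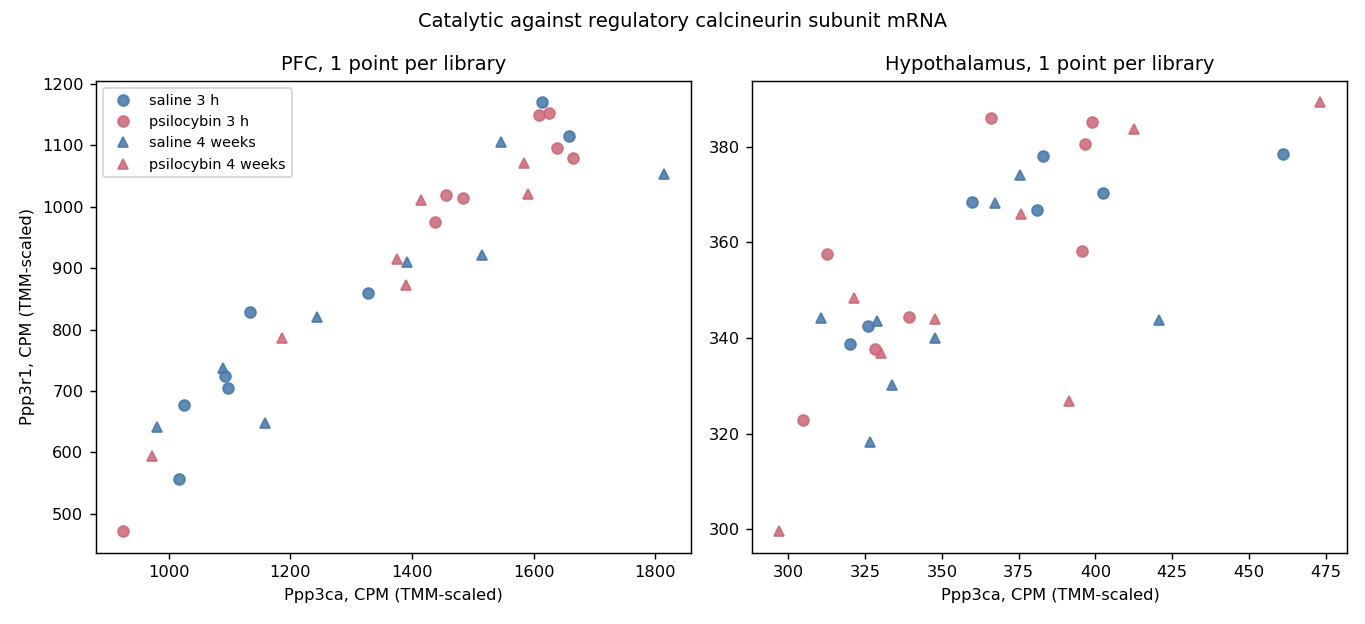
Ppp3ca (horizontal axis) against Ppp3r1 (vertical axis), both in CPM on TMM-scaled library sizes and on axes that do not start at 0, with 1 point per library in the PFC (left) and the hypothalamus (right), coloured by treatment with circles at 3 h and triangles at 4 weeks. In the PFC the points follow 1 line from psilocybin replicate 7 at 3 h (925 and 471 CPM) upward in all 4 groups, and the hypothalamus points spread over a narrower range.

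Over all genes tested, those most like Ppp3ca in this residual pattern over the 62 libraries were Ppp3r1 (r = 0.869), Arpp19 (0.867), Fam49b (0.847), Mmd (0.847) and Ppp3cb (0.845). Within the PFC these values were 0.933 to 0.964 and within the hypothalamus 0.548 to 0.740. Rcan1 was most like Arf1 (0.774), Rtcb (0.758), Gabarapl1 (0.756), Rpn1 (0.752) and Lrpap1 (0.747). The mean residual of the neuronal markers had r = 0.588 with Ppp3ca, 0.648 with Ppp3cb, 0.546 with Ppp3r1 and 0.542 with Rcan2. The mean residual of the hypothalamic markers had values of the opposite sign with the same genes, −0.488, −0.594, −0.523 and −0.459. These values pool both regions, and in the 31 PFC libraries the hypothalamic markers were near the floor. Their sum there was 0.864 to 12.7 CPM, and 25 libraries had a marker at 0. With the other marker lists r lay between −0.383 and 0.405 for these 4 genes.

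At 4 weeks in the PFC, with 8 saline and 7 psilocybin libraries, none of the 10 genes was called by edgeR's quasi-likelihood test, none had an unadjusted p under 0.05, and neither voom nor DESeq2 called any. The background in edgeR was 0% of 18971 genes called and 2.4% at an unadjusted p under 0.05, while over all genes DESeq2 called 19 and voom none. Ppp3ca was 982, 1318 and 1814 CPM after saline and 973, 1391 and 1591 CPM after psilocybin. These ranges overlapped almost entirely (log2 fold change 0.027, SE 0.115, 95% interval −0.20 to 0.26, adjusted p = 1 in edgeR), and the sign turned when all 64 libraries were used.

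The members farthest from 0 at that time were Ppp3r1, at 0.08 (SE 0.121, interval −0.16 to 0.32), and Nfatc2, at −0.16 (SE 0.115, interval −0.39 to 0.067). Nfatc2 was 7.18, 9.43 and 13.9 CPM after saline and 7.04, 9.26 and 9.84 CPM after psilocybin. The medians were close and the difference lay in the upper values of the saline group: without saline replicate 6 it was −0.069. Ppp3r1 ran from 0.029 to 0.15 over libraries left out in turn. The median log2 fold change of the 10 genes was 0.015, against −0.0067 for all genes tested, and its direction turned to −0.028 with voom, −0.023 with all 64 libraries, −0.0017 without the filter on low counts and −0.00028 with the groups of the comparison alone.

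In the hypothalamus at 3 h, 7 saline and 8 psilocybin libraries gave no call among the 10 by edgeR's quasi-likelihood test, voom or DESeq2. In the edgeR fit of all groups none had an unadjusted p under 0.05, where 0% of the genes tested were called and 1.78% had such a p. When these 2 groups were fitted alone, 1 of the 10 had one, and over all genes in that fit 822 did. Ppp3ca was 320, 381 and 461 CPM after saline and 305, 353 and 399 CPM after psilocybin, and the groups overlapped. Its log2 fold change was −0.08 (SE 0.116, 95% interval −0.31 to 0.15, adjusted p = 1 in edgeR), with −0.03 in pool A and −0.14 in pool B, and −0.12 to −0.028 over single libraries left out, nearest to 0 without saline replicate 6.

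The extremes of that comparison were both NFAT genes. Nfatc2 was 18.0, 21.1 and 25.6 CPM after saline and 15.7, 19.7 and 23.0 CPM after psilocybin (log2 fold change −0.16, SE 0.110, interval −0.38 to 0.065). Nfatc3 was 17.2, 18.1 and 19.7 CPM after saline and 17.6, 19.6 and 21.6 CPM after psilocybin (log2 fold change 0.10, SE 0.0945, interval −0.09 to 0.29). Both pairs of groups overlapped.

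At 4 weeks in the hypothalamus, 8 libraries a group again gave no call among the 10 by the same 3 tools and no unadjusted p under 0.05 in edgeR. Over all genes DESeq2 called 13 and voom none. In edgeR 0% of all genes were called and 9.61% had an unadjusted p under 0.05. That share rested largely on psilocybin replicate 5: without it 361 genes in place of 1823 had such a p. Ppp3ca was 311, 341 and 421 CPM after saline and 297, 362 and 473 CPM after psilocybin (log2 fold change 0.07, SE 0.112, 95% interval −0.15 to 0.29). Its size depended on single libraries and settings, with 0.0088 without psilocybin replicate 8, 0.11 without saline replicate 6, 0.042 without the filter on low counts, 0.12 with voom and 0.20 with an offset for gene length. The widest differences were those of Nfatc4, 0.33 (SE 0.251, interval −0.17 to 0.83), and Nfatc1, −0.17 (SE 0.122, interval −0.42 to 0.07). Single libraries moved these too, Nfatc4 to 0.17 without psilocybin replicate 1, and Nfatc1 to −0.26 without that library, −0.11 without psilocybin replicate 5 and −0.089 without saline replicate 6.

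Nfatc1 was 6.42, 7.62 and 11.9 CPM after saline and 5.29, 6.87 and 9.36 CPM after psilocybin at that time, with overlap. Nfatc4 was 0.963, 1.82 and 3.12 CPM after saline and 1.19, 2.32 and 3.63 CPM after psilocybin, also with overlap. Psilocybin replicate 5, the library with the lowest quality weight, was the lowest of its group for Nfatc3 (10.3 CPM) and the highest for Rcan1 (65.0 CPM), and it held 649 CPM of blood and leukocyte markers, where the other libraries of its group held 61.3 to 246 CPM. Without it still none of the 10 was called, and the median log2 fold change of the 10 went from 0.007 to −0.035, that of Nfatc3 from −0.12 to −0.034 and that of Rcan1 from 0.017 to −0.049.

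**Figure D5:**
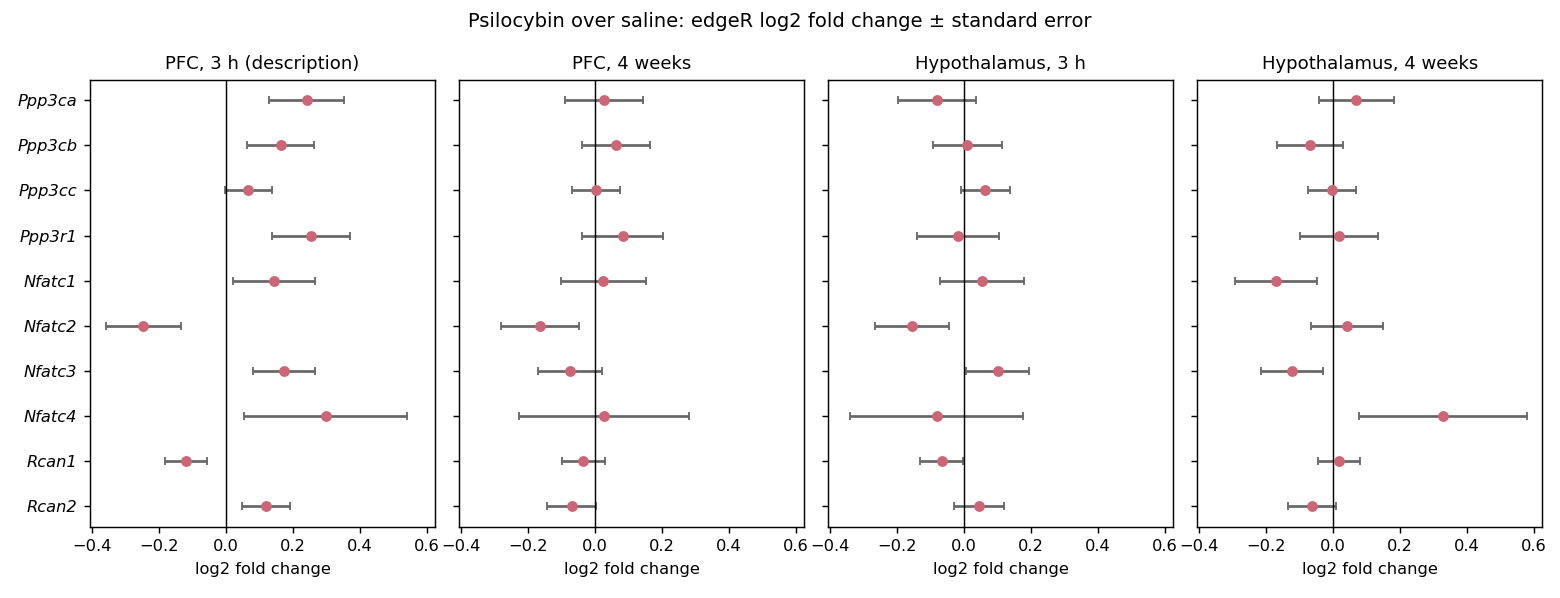
Log2 fold change of psilocybin over saline from edgeR with its standard error (horizontal axis, the same in all panels) for each gene (vertical axis) in the 2 regions and at the 2 times. The PFC at 3 h, by which the genes were chosen, is a description, with 8 genes above 0 and 2 below. In the other 3 panels the values lie between −0.17 and 0.33 and none passed the test.

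The difference between the psilocybin effects at 3 h and at 4 weeks in the hypothalamus was tested as an interaction and none of the 10 genes was called by edgeR's quasi-likelihood test, voom or DESeq2 or had an unadjusted p under 0.05 in edgeR. Of all genes 0% were called and 5.27% had an unadjusted p under 0.05, a number that fell from 999 to 431 genes without hypothalamus psilocybin replicate 5 at 4 weeks. The interaction ran from −0.41 (SE 0.359) for Nfatc4 to 0.22 (SE 0.176) for Nfatc1, and was −0.15 (SE 0.161, 95% interval −0.47 to 0.17) for Ppp3ca. Over single libraries left out, these ran from −0.52 to −0.25 for Nfatc4, from 0.14 to 0.32 for Nfatc1 and from −0.19 to −0.092 for Ppp3ca, which was −0.28 with the gene length offset. This comparison and those above share saline libraries, so their values are not independent.

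The pathway genes gave no call in these 4 comparisons either. The smallest p-values belonged to Orai1, a plasma membrane calcium channel gene, Prkaca and Crtc2 in the PFC at 4 weeks (adjusted p = 1 for each), and to Ppp1r1b, Crtc1 and Homer2 in the hypothalamus at 3 h (adjusted p = 1 for each). In the hypothalamus at 4 weeks they belonged to Ppp1r1a, Tbc1d10c and Ppia (adjusted p = 0.448, 0.450 and 0.512), and for the interaction to Ppp1r1a, Orai1 and Ppp1r1b (adjusted p = 0.904 for each, edgeR's quasi-likelihood test).

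Saline mice killed at 3 h and at 4 weeks were compared in the hypothalamus as a reference for age and time from injection, which cannot be told apart. Of all genes 0.685% were called and none of the 10 was, by edgeR's quasi-likelihood test. Rcan1 was nearest to a call. It was 50.9, 54.5 and 57.3 CPM at 3 h and 43.3, 49.4 and 52.7 CPM at 4 weeks, with overlap in part.

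The log2 fold change of Rcan1 was 0.14 (SE 0.0646), with an unadjusted p of 0.0299 and an adjusted p of 0.516 in edgeR. Voom with quality weights called it (adjusted p = 0.0258) at 0.15, in a fit that called 1375 of the 18971 genes tested. In edgeR Rcan1 was the 1 gene of the 10 with an unadjusted p under 0.05, where 8.09% of all genes had one. Nfatc1, at −0.25 (SE 0.126), and Ppp3ca, at 0.10 (SE 0.115), did not pass. Over single libraries left out, Nfatc1 ran from −0.30 to −0.16 and Ppp3ca from 0.043 to 0.14, and with voom they were −0.20 and 0.060. The pathway genes Chp2, Mef2a and Orai1 had the smallest p-values of their lists (adjusted p = 0.150, 0.584 and 0.769).

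In the PFC the Rcan1 levels at the 2 times are given without a test, since the 3 h libraries chose the genes. Saline mice had 70.3, 77.4 and 89.6 CPM at 3 h and 57.0, 59.5 and 70.7 CPM at 4 weeks, which overlapped by the highest 4-week library. Psilocybin mice had 66.1, 72.9 and 79.1 CPM at 3 h and 54.8, 59.5 and 67.3 CPM at 4 weeks, again with a small overlap. Nfatc3 ran the other way in saline mice, with 10.6, 12.6 and 17.0 CPM at 3 h and 15.0, 16.6 and 18.6 CPM at 4 weeks. In psilocybin mice Nfatc3 was 11.9, 15.3 and 17.7 CPM at 3 h and 13.6, 15.2 and 17.9 CPM at 4 weeks, with medians close together.

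Several of the genes lie over other annotated genes, and how reads in shared exons were assigned is not given in the sources used here. Ppp3r1 (chromosome 11, 17159263 to 17200375 in GRCm38) overlaps Wdr92 on the same strand, Ppp3ca (chromosome 3, 136670124 to 136937727) overlaps Gm42822 and Ppp3cc (chromosome 14, 70217865 to 70289277) overlaps Gm49288. Rcan1 lies on chromosome 16, 92391953 to 92470867, and Nfatc2 on chromosome 2, 168476410 to 168601655, with no same-strand partner.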

How the data were processed

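The authors aligned reads to GRCm38 with STAR 2.7.2b, and featureCounts 1.6.2 gave the counts on GENCODE genes (versions per the submitters' processing notes). The deposited table holds raw read counts per gene for 64 samples. Symbols were matched for 55141 of 55401 gene IDs. Libraries with at least 1000000 counts were kept (62). In edgeR 4.0.16 (R 4.3.3), low counts were removed with filterByExpr over the groups (at least 10 counts), libraries were scaled by TMM and genes were tested with the quasi-likelihood test in 1 fit of all groups with group and extraction pool. The study's model held these 2 terms, and it also used sample quality weights and an animal effect, which this fit did not. The paper also left out a further sample, which it does not name, for its wound healing and immune genes. Benjamini-Hochberg adjusted p-values under 0.05 were called. CPM used TMM-scaled library sizes, and TPM the exonic length in the table. Alternatives were voom with quality weights and limma 3.58.1 (mouse as block), DESeq2 1.42.0, other scalings, filters, covariates and library sets. No 2 libraries of a group were alike: the smallest chi-square per degree of freedom over 210 pairs was 3.85. Samples are separate mice within a region and group, numbered by cage. Between regions, same-numbered libraries came from the same mouse (correlation of residuals −0.126 to 0.335 over 8 mice). With the mouse as a block in an edgeR fit of the 2 saline groups at 4 weeks alone, 9 of the 10 genes were called between regions, as in the main fit. Counting depth limits precision for genes with few reads.

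The genes and lists were chosen with earlier results of these data known. Named genes were the 10, the 3 pathway genes with the smallest p-value in each tested comparison, and the 5 genes with the highest residual correlation with Ppp3ca and with Rcan1. A gene that this rule named is not reported here.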

Additional observations from a re-analysis of the deposited data

Results flagged for a closer look

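In 9 of 80 combinations of a gene and a group, the highest or the lowest library lay far from the others by Dixon's test at the 95% level, which chance alone gives in about 1 of 20 groups. In the PFC at 3 h, psilocybin replicate 7 was lowest for Ppp3ca (925.1 CPM), Ppp3cb (222.4 CPM) and Ppp3r1 (471.5 CPM), and the part of this library in the result was measured by leaving it out, as given above. In the hypothalamus at 4 weeks, psilocybin replicate 5 was lowest for Nfatc3 (10.3 CPM) and highest for Rcan1 (65.0 CPM). Saline replicate 6 of the hypothalamus at 4 weeks was highest for Nfatc1 (11.9 CPM). Single high libraries were also found for Ppp3cc in the PFC at 4 weeks (psilocybin replicate 7, 29.0 CPM), for Rcan1 in the PFC at 4 weeks (saline replicate 8, 70.7 CPM) and for Rcan2 in the PFC at 3 h (saline replicate 5, 349.8 CPM).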

How the results depend on the processing

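The number of the 10 genes called was recomputed under each of the other settings and with each library of a comparison left out in turn. In the comparisons of psilocybin with saline in the PFC at 4 weeks and in the hypothalamus, and in the interaction, it was 0 under each. For saline mice at 3 h against 4 weeks it was 1 with voom, quality weights and the mouse as a block (Rcan1), and the cause was not tested. Between regions it ran from 8 to 10 over the settings and from 7 to 9 over libraries left out, with voom adding Nfatc4, with Nfatc3 lost without the filter, with the cage block and with all 64 libraries, and with Nfatc1 lost without the extraction pool. The log2 fold change of Ppp3ca in the PFC at 4 weeks was −0.00205 with all 64 libraries and ran from −0.0274 to 0.0887 over libraries left out; the cause was not tested. The median of the 10 genes in the PFC at 3 h was 0.122 to 0.162 over libraries left out and 0.19 with voom weights. Over all genes, calls went from 130 to between 53 and 1375 for saline 3 h against 4 weeks, from 2 to as many as 1232 (voom) in the PFC at 3 h, and from 0 to 19 and 13 (DESeq2) in the PFC and the hypothalamus at 4 weeks. The replicate number is the cage. With it as a replicate block in place of the pool, 8 of the 10 genes were called between regions and 0 elsewhere. With group means removed, libraries of the same cage had a mean correlation of residuals of 0.0806 in the PFC and 0.0723 in the hypothalamus, and 7 and 4 of 31 libraries correlated best with their own number. With group and pool removed these were −0.0415 and −0.0236, and 2 and 2 libraries, so the numbers were not taken as pairs within a region. Nfatc4, with the fewest reads, had standard errors of 0.242 to 0.259 on the log2 scale for the comparisons of a pair of groups within a region and 0.359 for the interaction. Small differences of this gene were therefore not detectable, and the part of read depth in these errors was not tested.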
